A study of Sus scrofa with 12 samples.

Results

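The genes described here encode the receptors and structural proteins through which aortic valve interstitial cells hold on to matrix and to each other. They are the integrin subunits, the laminins and nidogens of the basement membrane, the cadherins, the claudins, the syndecans and periplakin (PPL). Members were taken by gene symbol from probe sets that the platform annotation gives exactly 1 symbol, with CDH5 and CLDN5, which serve as endothelial markers, left out. A probe set also had to exceed a log2 value of 4 on at least 3 of the 12 arrays. This gave 42 probe sets for 28 genes, out of 56 probe sets and 36 genes that matched by symbol, in a table of 23999 probe sets. The 28 genes were 5 integrin α subunits, 4 integrin β subunits, 4 laminin or nidogen chains, 4 cadherins, 7 claudins, 3 syndecans and PPL.

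Valve interstitial cells are the fibroblast-like cells of the heart valve leaflet. They came from adult pigs and were freed from aortic valves with collagenase II. P0 cells went to RNA extraction straight after isolation, with no culture and no treatment. P2 cells had been grown in medium 199 with 15% fetal bovine serum, passaged 2 times on tissue culture polystyrene, and then held in 1% serum. They were left untreated or given porcine TGF-β1, a cytokine that drives fibroblasts towards a contractile state, at 5 ng/ml for 8 h or for 24 h, and all P2 cells were collected on day 3 of culture. Each of the 4 groups had 3 biological replicates, 1 Affymetrix array each. The labels give no strain or sex, and nothing says whether replicate numbers share an animal or whether valves were pooled, so p-values measure the spread between these samples. P0 and P2 cells differed in culture, passage, serum and time from isolation, and so from collagenase digestion, together. Levels of cell type markers differed as well. None of these can be told apart in that comparison.

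Integrins are transmembrane receptors made of an α and a β chain. The β1 chain joins many α chains and binds fibronectin, collagens and laminins, whereas αv integrins bind RGD ligands and can release active TGF-β from its latent complex. Syndecans are heparan sulfate proteoglycans that act as co-receptors beside integrins. Laminins, each a trimer of an α, a β and a γ chain, and nidogens, which bridge laminin to type IV collagen, build basement membranes. Cadherins join neighbouring cells through adherens junctions, claudins form the strands of tight junctions, and periplakin links desmosomes and the cornified envelope of epithelia to intermediate filaments.

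Values are log2 expression per probe set. The arrays measure RNA near the 3′ end of transcripts, so levels are compared between arrays and never between genes. A gene is described by its member probe set with the highest mean unless another is named, and changes are log2 fold changes with the standard error (SE) of the limma fit over 3 arrays a group. A change was called at a Benjamini-Hochberg adjusted p under 0.05 over the 17638 probe sets tested. Reporter control probe sets on the arrays had a 95th percentile of 4.58. A fold with 1 group mean under that level is a lower bound, counted from the level itself, and no fold is given where both means were under it.

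The label of the cells was checked first. All 10 measured markers of valve interstitial cells or fibroblasts had means above the control level in P0 and in untreated P2 cells, and VIM, DCN, LUM and PDGFRB lay above it on every array. Of these 10, 1 rose in culture, S100A4 by 5.10, and 6 fell, TCF21 and THY1 by the most (log2 -3.94 and -1.89). Of all genes, 42.1% rose and 24.2% fell in culture. All 8 lymphocyte markers and 7 of 9 epithelial markers, CDH1 and EPCAM among them, were under the control level on every array. Endothelial RNA was present: the summed linear level of 18 endothelial markers ran from 4454 to 5527 in P0, while FLT1 and KDR stayed under the control level on all arrays. In each P2 group the array numbered 3 had the lowest sum, 1616 against 5076 and 6837 in untreated cells. Macrophage markers were far lower in culture, and their summed level of 12185 to 18029 in P0 compared with 1272 to 1827 in untreated P2 cells.

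Of the 36 genes matched by symbol, 8 had no probe set that passed the level filter: ITGA6, ITGB7, ITGAM, CDH1, CDH6, CDH24, CLDN14 and ITGB1BP2, the last a protein that binds an integrin tail. The third-highest value of the members just inside the filter was 4.01 for CLDN7, 4.51 for CDH17 and 4.63 for a probe set of CDH3. Just outside lay ITGB1BP2 at 3.54, ITGB7 at 3.42 and the other CLDN3 probe set at 3.37. Some members passed through 1 side of a comparison alone: CLDN10 was over log2 4 on no P2 array, and CLDN6 and CLDN7 on no P0 array, so their differences in culture are partly set by the filter. The same holds for 1 ITGA8 probe set, not the one with the highest mean, which was over log2 4 on no P0 array. CDH17 and CLDN7 had means under the control level in all 4 groups. ITGA1, ITGA11, ITGB8, LAMA2, LAMA4, NID1, CDH2, CLDN1 and SDC3 also belong to these families but had no probe set with a single symbol and are not analysed here.

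**Figure D1:**
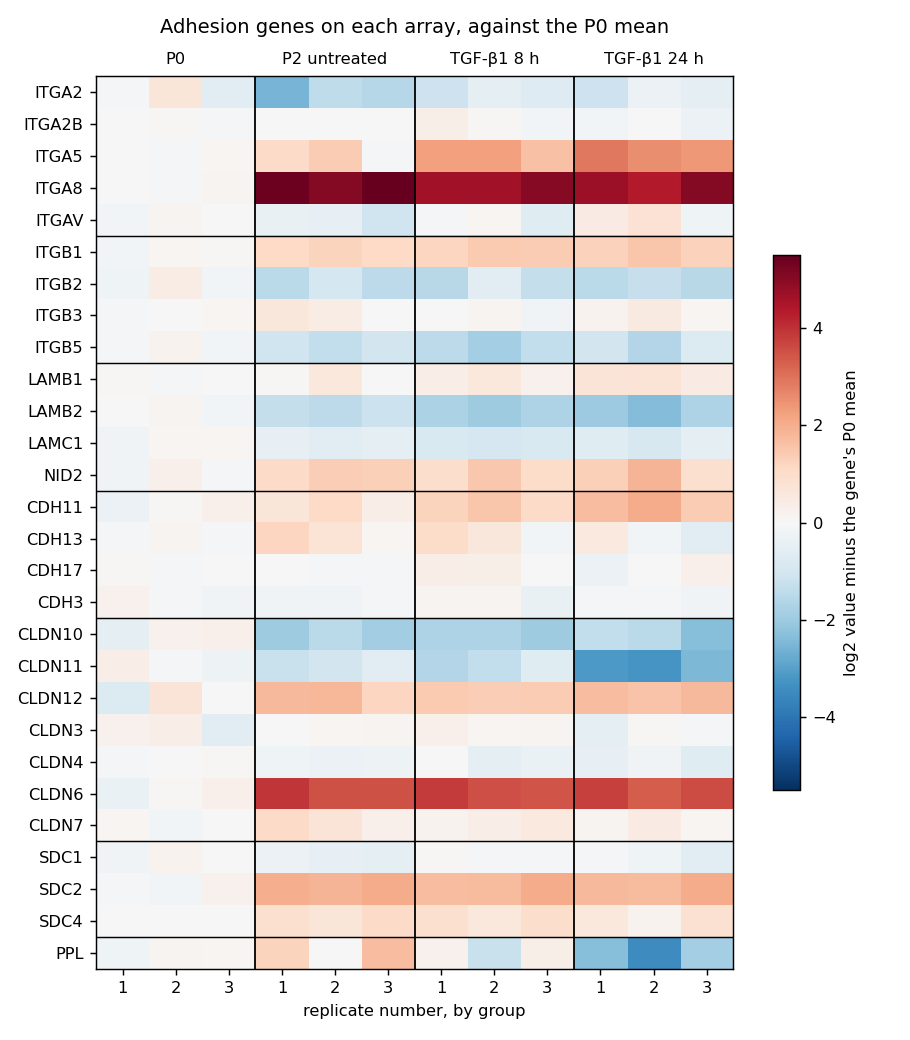
Log2 value of each of the 28 genes on each of the 12 arrays (columns, by group and replicate number) minus the gene's mean over the 3 P0 arrays, with red higher and blue lower. ITGA8 and CLDN6 are the darkest red on all 9 P2 arrays, PPL and CLDN11 turn blue at 24 h of TGF-β1, and ITGA5 deepens in red from untreated to 24 h.

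The comparison of untreated P2 cells with P0 cells asked how the adhesion genes differ between freshly isolated cells and cells cultured on plastic. Among the 28 genes, 10 rose and 8 fell (64.3%), against 66.3% of all 6014 genes called, 42.1% up and 24.2% down. The groups did not overlap for 19 of the 28, against 72% of all genes. The share of members called was thus near that of genes in general. The median change was 0.14 for the members and 0.20 for all genes, and the median size of change, sign aside, was 0.83 for the members and 0.62 for all genes. The counts include CLDN6 and CLDN7 among the rises and CLDN10 among the falls, which passed the filter through 1 side alone. Among the other 25 genes, 8 rose and 7 fell (60%). The counts of LAMC1, SDC1 and CDH11 rest on the probe set with the highest mean, and their other probe sets differ from it as given with each gene.

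Among integrin α chains, ITGA8 and ITGA5 rose, ITGA2 fell, and ITGAV and ITGA2B were not called. ITGA8 encodes α8, which pairs with β1 and is found on mesenchymal and smooth muscle cells. It read 4.52, 4.45 and 4.68 in P0 and 9.93, 9.59 and 10.21 in untreated P2 cells. Its P0 values sat at the control level and its P2 values far above, and the fold was at least 40.1 (adjusted p = 1.44e-09, limma). The other 2 ITGA8 probe sets were at least 29.8-fold and 12.6-fold higher, each with its P0 mean under the control level. The latter, at 3.32, 3.25 and 3.01 in P0, passed the filter through its P2 arrays alone, so its difference is partly set by the filter. Of 6 smooth muscle or pericyte markers, 3 rose and 1, RGS5, fell in the same comparison, against 42.1% and 24.2% of all genes. DES and MYOCD were not called. The summed linear level ran from 6433 to 9298 in P0 and from 44267 to 48190 in untreated P2 cells. That sum was mostly ACTA2 in P2, at 15.24, 15.36 and 15.38 there and 12.63, 12.02 and 12.65 in P0. The mean log2 of the 6 ran from 8.12 to 8.63 in P0 and from 8.75 to 8.90 in untreated P2 cells. The part of smooth muscle or pericyte RNA in the ITGA8 difference was not tested. ITGA5, the α chain of the main fibronectin receptor, was at 7.98, 7.86 and 8.10 in P0 and 9.05, 9.39 and 7.89 in untreated P2 cells. The P2 array numbered 3 lay among the P0 arrays, so the groups overlapped, and the rise of 0.80 ± 0.320 passed the threshold narrowly (adjusted p = 0.0491). It was called in 2 of the 12 fits that each left out 1 array, with adjusted p up to 0.208 when P2 untreated replicate 2 was left out. It was also lost with no filter (adjusted p = 0.066), with quantile normalisation (0.0787) and with the mean of its probe sets (0.0551). The second ITGA5 probe set was not called (adjusted p = 0.155). Without the 3 P2 arrays numbered 3, an alternative chosen after seeing the data, ITGA5 rose by 1.24 ± 0.155 (adjusted p = 0.000107). Removing the untreated P2 value that lay among the P0 arrays widens the difference by itself.

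ITGA2 encodes the α2 chain of a collagen receptor. It read 5.80, 6.54 and 5.24 in P0 and 3.30, 4.44 and 4.29 in untreated P2 cells. All 3 P2 values were under the control level and all P0 values above it, a fall of at least 2.42-fold (adjusted p = 0.000902). ITGAV, the αv chain, was at 9.61, 9.91 and 9.79 in P0 and 9.34, 9.30 and 8.66 in untreated P2 cells. The groups did not overlap, but the difference of -0.67 ± 0.275 missed the threshold (adjusted p = 0.054). It was called without 8 h replicate 3 (adjusted p = 0.0415), 24 h replicate 2 (0.0392) or 24 h replicate 3 (0.024), and at -0.45 without the P2 arrays numbered 3 (adjusted p = 0.028). ITGA2B, the platelet αIIb chain, differed by -0.01 (adjusted p = 0.958).

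Among β chains, ITGB1 rose while ITGB2 and ITGB5 fell. ITGB1, the shared β1 partner of α2, α5 and α8, was at 12.84, 13.10 and 13.04 in P0 and 14.09, 14.22 and 14.07 in untreated P2 cells. Every P2 array was higher than every P0 array, and the rise was 2.19-fold (log2 1.13 ± 0.120, adjusted p = 6.16e-06). ITGB5, which pairs with αv, was at 11.52, 11.81 and 11.46 in P0 and 10.51, 10.24 and 10.60 in untreated P2 cells. It fell 2.21-fold with no overlap (log2 -1.15 ± 0.217, adjusted p = 0.000643). ITGB3, the other αv partner measured, was at 8.17, 8.28 and 8.38 in P0 and 8.92, 8.70 and 8.25 in untreated P2 cells. Its untreated P2 array numbered 3 fell within the P0 range, and the difference of 0.35 ± 0.173 was not called (adjusted p = 0.103). Leaving that 1 array out gave a rise of 0.54 (adjusted p = 0.0126), but removing the P2 value nearest to P0 widens the difference by itself.

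ITGB2, the β2 chain of leukocytes, was at 5.62, 6.27 and 5.74 in P0 and 4.39, 4.92 and 4.45 in untreated P2 cells. It fell 2.45-fold with no overlap (log2 -1.29 ± 0.244, adjusted p = 0.000622). It also stands on the list of macrophage and monocyte markers, of which 12 of 14 tested fell and none rose, with a median of -2.20. Of all genes, 24.2% fell and 42.1% rose, with a median of 0.20. ITGB2 is itself counted among the 14 and the 12. ITGAM, its α partner on myeloid cells, was under the control level on all arrays. The part of macrophage RNA in the ITGB2 difference was not tested, and in these bulk samples fewer cells of a type and less RNA per cell cannot be told apart.

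In the basement membrane group, NID2 rose, LAMB2 fell, LAMB1 was not called, and the probe sets of LAMC1 were called in opposite directions. LAMB2, the β2 laminin chain, was at 10.72, 10.87 and 10.58 in P0 and 9.39, 9.28 and 9.54 in untreated P2 cells. The groups were more than 1 log2 unit apart at every array, and the fall was 2.50-fold (log2 -1.32 ± 0.163, adjusted p = 2.12e-05). LAMB1, the β1 chain, was at 12.52, 12.38 and 12.50 in P0 and 12.51, 13.03 and 12.43 in untreated P2 cells, and the values overlapped (difference 0.19 ± 0.163, adjusted p = 0.336). NID2, nidogen 2, was at 10.23, 10.68 and 10.31 in P0 and 11.47, 11.77 and 11.73 in untreated P2 cells, every P2 array above every P0 array (2.38-fold, adjusted p = 0.000524).

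LAMC1, the γ1 chain found in most laminins, gave opposite answers from its probe sets. The probe set with the highest mean was at 12.34, 12.63 and 12.64 in P0 and 12.07, 11.97 and 12.04 in untreated P2 cells, a called fall of 0.51. The other 3 LAMC1 probe sets rose by 0.65, 1.16 and 1.20, each with adjusted p at or under 0.0278. Taking the mean of the 4 LAMC1 probe sets turned the change to 0.63 (adjusted p = 0.0031). No direction is given for LAMC1 as a gene, although it stands among the 8 falls by its probe set with the highest mean.

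The syndecans were all called, SDC2 and SDC4 up and SDC1 down. SDC2, the syndecan of mesenchymal cells, was at 11.39, 11.32 and 11.69 in P0 and 13.46, 13.36 and 13.51 in untreated P2 cells. The P2 arrays were tightly grouped and well above P0, a 3.93-fold rise on this probe set (adjusted p = 2.22e-07), while the second SDC2 probe set rose by 0.64 ± 0.120. SDC4, the syndecan of focal adhesions, was at 7.67, 7.64 and 7.63 in P0 and 8.52, 8.33 and 8.71 in untreated P2 cells. It rose 1.83-fold with no overlap (adjusted p = 0.00067). SDC1, the syndecan typical of epithelia, was at 8.55, 8.94 and 8.73 in P0 and 8.41, 8.31 and 8.24 in untreated P2 cells. This probe set fell by 0.42 (adjusted p = 0.0212), but the other 3 SDC1 probe sets lay between 0.16 and 0.21 higher without a call, and their mean with it differed by 0.04 (adjusted p = 0.798). The SDC1 call was also lost without P0 replicate 2, P2 untreated replicate 2 or P2 untreated replicate 3 (adjusted p up to 0.0874).

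**Figure D2:**
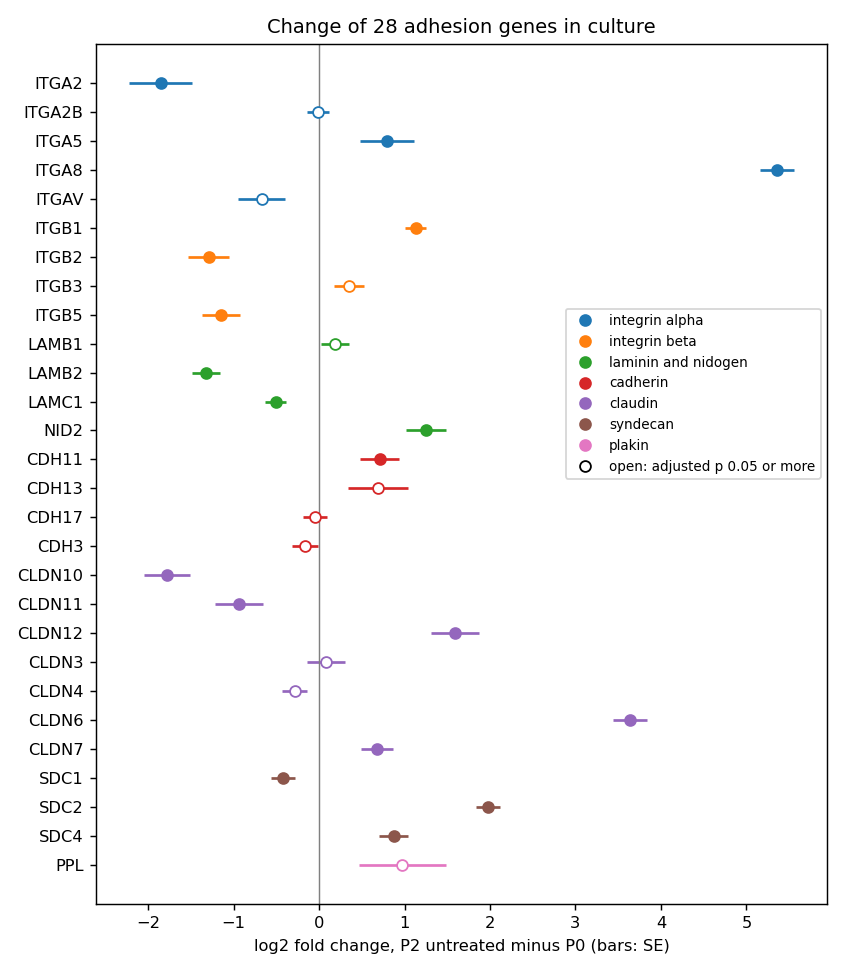
Log2 fold change of each of the 28 genes, untreated P2 minus P0 (points, by family colour), with the SE of the fit (bars, 3 arrays a group). Filled points passed an adjusted p of 0.05. ITGA8 and CLDN6 stand farthest to the right, and ITGA2 and CLDN10 farthest to the left.

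Of the 4 cadherins only CDH11 was called in culture. CDH11, the cadherin of mesenchymal cells, was at 10.10, 10.48 and 10.68 in P0 and 11.09, 11.52 and 10.78 in untreated P2 cells. The lowest P2 array, numbered 3, was just above the highest P0 array, and the rise was 0.71 ± 0.227 (adjusted p = 0.0175). The call was lost without P0 replicate 1 (adjusted p = 0.0778) or P2 untreated replicate 2 (adjusted p = 0.0808). Of the other 2 CDH11 probe sets, 1 differed by -0.43 without a call and 1, also not called, had its P2 mean under the control level, and the mean over the 3 differed by -0.07 (adjusted p = 0.808). The direction of CDH11 in culture therefore depended on the probe set.

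CDH13, T-cadherin, which lacks a transmembrane domain and binds adiponectin, was at 8.55, 8.78 and 8.53 in P0 and 9.81, 9.38 and 8.74 in untreated P2 cells. The difference of 0.69 ± 0.347 was not called (adjusted p = 0.108), and the P2 arrays spread over more than 1 log2 unit, the array numbered 3 lowest. It was called without the P2 arrays numbered 3 (0.97, adjusted p = 0.00482), a choice made after seeing the data that takes out the lowest P2 value. CDH3 and CDH17, both cadherins of epithelia, differed by -0.17 and -0.05 and were not called.

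Claudins moved in both directions, with 3 up, 2 down and 2 not called. CLDN6, a claudin of embryonic epithelia, was at 3.24, 3.70 and 3.92 in P0 and 7.54, 7.11 and 7.12 in untreated P2 cells. It lay under the control level on every P0 array and well above it on every P2 array, at least 6.38-fold higher. It passed the filter through its P2 arrays alone. CLDN12 was at 2.79, 4.21 and 3.56 in P0 and 5.29, 5.33 and 4.71 in untreated P2 cells, under the control level in P0 and a little above it in P2, at least 1.44-fold higher. CLDN7 was called up, but both of its means, 3.49 and 4.16, were under the control level.

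CLDN11, the claudin of myelin and of Sertoli cell junctions, was at 10.02, 9.57 and 9.39 in P0 and 8.43, 8.67 and 9.08 in untreated P2 cells. It fell with no overlap (log2 -0.93 ± 0.279, adjusted p = 0.0121). That call was lost without P0 replicate 1 (adjusted p = 0.0559) or P2 untreated replicate 1 (adjusted p = 0.0522). Of 4 neural or glial markers 2 fell in the same comparison, against 24.2% of all genes. They were S100B, 19.2-fold, and NCAM1, with a log2 change of -2.09 ± 0.222. GFAP and SOX10 were not called, SOX10 at 4.71, 4.82 and 4.66 in P0 and 4.82, 4.79 and 4.79 in untreated P2 cells. The summed linear level of the 4 markers ran from 4436 to 4709 in P0, most of it S100B, and from 391 to 738 in untreated P2 cells. The part of neural or glial RNA in the CLDN11 difference was not tested. CLDN10 was at 4.77, 5.55 and 5.56 in P0 and 3.35, 3.82 and 3.38 in untreated P2 cells, from just above the control level to under it, at least 1.63-fold lower. CLDN3 and CLDN4, which with CLDN7 stand on the epithelial marker list, differed by 0.08 and -0.29 and were not called.

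PPL, periplakin, was at 7.37, 7.75 and 7.71 in P0 and 8.82, 7.62 and 9.31 in untreated P2 cells. The P2 array numbered 2 lay within the P0 range and the others above it, and the difference of 0.98 ± 0.512 was not called (adjusted p = 0.121). Leaving out that array gave a called rise of 1.46 (adjusted p = 0.0284). Removing the P2 value nearest to P0 widens the difference by itself, and number 2 was lowest for PPL in every P2 group.

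**Figure D3:**
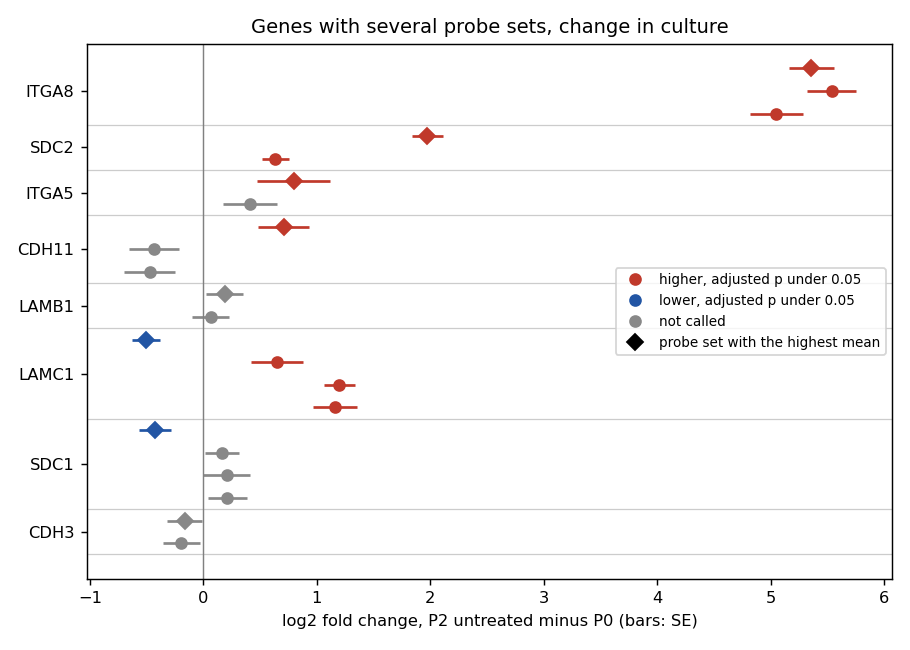
Log2 fold change, untreated P2 minus P0, of every member probe set of the 8 genes with more than 1 (bars: SE, 3 arrays a group), the diamond marking the probe set with the highest mean. The 3 ITGA8 probe sets lie farthest to the right, with P0 means under the control level, and 1 of them passed the filter through P2 arrays alone. Those of LAMC1 fall on both sides of 0 with calls in both directions.

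Across probe sets rather than genes, 16 of 42 rose and 8 fell in culture (57.1%), against 59.4% of all probe sets called, 33.6% up and 25.8% down. ITGA8 had all 3 probe sets called up and SDC2 both. These counts include 1 ITGA8 probe set and those of CLDN6, CLDN7 and CLDN10, which passed the filter through 1 side alone.

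The partners of these genes in culture were taken from lists of named genes, and their counts stand against 66.3% of all genes called, 42.1% up and 24.2% down. Many listed genes were not tested, and nothing is said of those. Tested were 15 of 41 adaptor and focal adhesion genes, 17 of 26 ligands and 5 of 24 basement membrane partners. For adherens junction and desmosome, tight junction, and heparan sulfate and syndecan partners it was 7 of 25, 6 of 18 and 7 of 25. Of 15 tested integrin adaptors and focal adhesion genes, 8 rose and 3 fell. FLNA, filamin A, which ties integrin tails to actin, rose 5.71-fold (log2 2.51 ± 0.137). PDLIM7 and PDLIM5, LIM proteins of actin bundles, rose by 2.46 ± 0.160 and 2.23 ± 0.123. The median of this list was 0.65, beside 0.20 for all genes.

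Of 17 integrin ligands, 4 rose and 5 fell, with a median of 0.00. ICAM1, the ligand of β2 integrins, fell 7.18-fold (log2 -2.84 ± 0.230). SPP1, osteopontin, an αv ligand, rose by 2.63 ± 0.259, and THBS2, thrombospondin 2, fell by 2.17 ± 0.196. Of 5 basement membrane partners 3 fell and none rose: DST by 1.25, COL15A1 by 0.73 and SPARC by 0.44.

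Of 7 adherens junction and desmosome partners 4 rose and 2 fell. CTNND1, on this list, was over log2 4 on no P0 array and passed the filter through P2 arrays alone. PCDH7, a protocadherin, rose 8.75-fold (log2 3.13 ± 0.315), while DSP, desmoplakin, fell by 1.43 ± 0.250 and NECTIN2 by 0.79 ± 0.191. Of 6 tight junction partners 1 rose and 2 fell. TJP1, the scaffold ZO-1, was at least 1.57-fold higher, CGNL1, paracingulin, fell by 0.88 ± 0.167, and OCLN, occludin, was under the control level in both groups.

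Of 7 heparan sulfate and syndecan partners 2 rose and 2 fell. Both that rose, HPSE and SDCBP2, were over log2 4 on no P0 array. They passed the filter through P2 arrays alone, so their rises are partly set by the filter. SULF2, which removes sulfate from heparan sulfate outside the cell, fell 8.03-fold (log2 -3.00 ± 0.162). HPSE, heparanase, was at least 1.92-fold higher and SDCBP2, a syntenin that binds syndecan tails, at least 2.58-fold higher (adjusted p = 0.0463). SDCBP2 was at 3.41, 3.22 and 3.55 in P0 and 6.72, 7.36 and 3.77 in untreated P2 cells, so the P2 array numbered 3 lay under the control level with the P0 arrays.

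The comparisons with TGF-β1 asked what 8 h and 24 h of the cytokine did to P2 cells. Both share the same untreated arrays. At 8 h, 1 of the 28 genes rose and none fell (3.57%), against 5.59% of all genes, 2.74% up and 2.84% down, and 8 had an unadjusted p under 0.05. At 24 h, 3 rose and 3 fell (21.4%), against 10.1% of all genes, 4.42% up and 5.67% down. Groups did not overlap for 6 members at 8 h and 8 at 24 h, against 28.1% and 30.1% of all genes. Between 24 h and 8 h, 1 member fell and none rose (3.57%), against 0.283% of all genes, 0.15% up and 0.133% down, and 2 had an unadjusted p under 0.05. Their groups did not overlap for 6 members, against 15% of all genes. The median change of the members was -0.005 at 8 h and -0.08 at 24 h, beside -0.012 and -0.01 for all genes.

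Over the 42 probe sets, 4 rose and none fell at 8 h (9.52%), against 5.07% of all probe sets, 2.53% up and 2.53% down. At 24 h, 6 rose and 3 fell (21.4%), against 8.49%, 4.27% up and 4.22% down. Between the times 1 fell and none rose, against 0.232%, 0.142% up and 0.0907% down. The 4 at 8 h were both ITGA5 probe sets and the 2 CDH11 probe sets with lower means.

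The replicate numbers of P2 arrays marked shared deviations, so the P2 arrays were also fitted with replicate number as a block, and this changed the counts. At 8 h the block gave 5 genes up (ITGA5, ITGAV, ITGA2, CDH11 and SDC1) and 4 down (ITGA8, LAMB2, LAMC1 and PPL), against 14.2% of all genes called in that fit, 6.15% up and 8.03% down. At 24 h it gave 5 up (ITGA5, ITGAV, ITGA2, CDH11 and LAMB1) and 6 down (ITGA8, LAMB2, CLDN11, PPL, CDH13 and SDC4), against 23.1%, 10.1% up and 13% down. Between 24 h and 8 h it gave 2 up (CDH11 and ITGAV) and 3 down (CLDN11, PPL and CDH13), against 2.69%, 0.848% up and 1.85% down.

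ITGA5 rose at both times. After 8 h it was at 10.22, 10.22 and 9.58, and after 24 h at 10.89, 10.55 and 10.36, against 9.05, 9.39 and 7.89 untreated. All treated arrays were above all untreated ones. The rise was 2.35-fold at 8 h (log2 1.23 ± 0.320, adjusted p = 0.0485) and 3.54-fold at 24 h (log2 1.82 ± 0.320, adjusted p = 0.00514). Within replicate numbers 1, 2 and 3 the 24 h difference was 1.84, 1.16 and 2.47. The second ITGA5 probe set rose by 0.92 at 8 h (adjusted p = 0.0451) and by 1.68 at 24 h (adjusted p = 0.00154). The 24 h call held in all 12 fits that left out 1 array. The 8 h call held in 1 of the 12, the one without P2 untreated replicate 2, with adjusted p between 0.0532 and 0.164 in the others, and it was called with the block (adjusted p = 0.0114). It was lost with no filter (adjusted p = 0.0688), with P2 arrays alone (0.0988) and with quantile normalisation (0.0516).

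ITGAV rose at 24 h. It was at 9.68, 9.86 and 9.12 after 8 h and 10.23, 10.59 and 9.54 after 24 h, against 9.34, 9.30 and 8.66 untreated. The 24 h arrays were all above the untreated ones, and the 8 h arrays overlapped with them. The 24 h rise was 2.02-fold (log2 1.01 ± 0.275, adjusted p = 0.043), while the 8 h difference was 0.45 (adjusted p = 0.462, and 0.0301 with the block). The 24 h call held in 3 of 12 fits, those without 8 h replicate 2, 8 h replicate 3 or 24 h replicate 3, and was lost without any 1 of the other arrays (adjusted p up to 0.162). It was also lost with no filter (adjusted p = 0.0594), with P2 arrays alone (0.0787) and with quantile normalisation (0.0557). Within the replicate numbers the 24 h difference was 0.89, 1.28 and 0.88, and with the block the adjusted p was 0.000874.

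ITGA2 was at 4.70, 5.39 and 5.14 after 8 h and 4.71, 5.54 and 5.36 after 24 h, against 3.30, 4.44 and 4.29 untreated. The treated arrays were all above the control level and above all untreated arrays. The untreated mean was under the control level, and the treated means were at least 1.41-fold and 1.54-fold higher. These differences were not called in the fit without a block (adjusted p = 0.137 and 0.0683) and were called with it (adjusted p = 0.0028 and 0.000737). The direction was opposite to that of ITGA2 in culture, and both comparisons share the untreated P2 arrays.

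ITGA8, high in all P2 cells, was at 9.17, 9.17 and 9.56 after 8 h and 9.25, 8.91 and 9.61 after 24 h, against 9.93, 9.59 and 10.21 untreated. The 8 h arrays were below the untreated ones, and at 24 h the highest treated array slightly exceeded the lowest untreated one. The differences were -0.61 and -0.65 (adjusted p = 0.115 and 0.0665, and 0.00918 and 0.00418 with the block). Every treated array remained above 8.9, far from the P0 values.

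No β chain was called with TGF-β1 in either fit. ITGB1 was at 14.20, 14.44 and 14.39 after 8 h and 14.27, 14.53 and 14.26 after 24 h, 0.22 and 0.23 above the untreated mean. ITGB3 was at 8.30, 8.45 and 8.08 and then 8.47, 8.76 and 8.39. ITGB5 was at 10.18, 9.75 and 10.25 and then 10.61, 9.97 and 10.87. The array numbered 2 was the lowest for ITGB5 in every P2 group.

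LAMB2 fell at 24 h. It was at 8.98, 8.76 and 9.01 after 8 h and 8.72, 8.35 and 9.03 after 24 h, against 9.39, 9.28 and 9.54 untreated. All treated arrays were below all untreated ones. The 24 h fall was 1.63-fold (log2 -0.71 ± 0.163, adjusted p = 0.0203), and the 8 h difference was -0.49 (adjusted p = 0.124, and 0.025 with the block). The 24 h call was lost without P2 untreated replicate 1 or 3 or 24 h replicate 1 or 2 (adjusted p up to 0.0842).

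LAMB1 was at 12.83, 13.06 and 12.69 after 8 h and 13.18, 13.20 and 12.92 after 24 h, against 12.51, 13.03 and 12.43 untreated. The 24 h array numbered 3 lay below the highest untreated array, and the 24 h difference of 0.45 was called with the block (adjusted p = 0.0247) but not without it (adjusted p = 0.12). It was also called without P2 untreated replicate 2 (0.63, adjusted p = 0.0231). The LAMC1 probe set with the highest mean was at 11.70, 11.59 and 11.70 and then 11.87, 11.65 and 12.03, with differences of -0.36 and -0.18 from untreated cells. NID2 was at 11.38, 11.88 and 11.43 and then 11.73, 12.26 and 11.27, overlapping with untreated cells at both times.

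CDH11 rose at 24 h on all 3 of its probe sets. It was at 11.63, 11.94 and 11.45 after 8 h and 12.12, 12.45 and 11.79 after 24 h, against 11.09, 11.52 and 10.78 untreated. The 24 h arrays were all above the untreated ones, and the 8 h array numbered 3 was just under the highest untreated array. The rise at 24 h was 1.99-fold (log2 1.00 ± 0.227, adjusted p = 0.019), with 1.04, 0.93 and 1.02 within the replicate numbers. Another probe set rose by 1.02 at 8 h and 1.42 at 24 h. The third, with its untreated mean under the control level, was at least 1.52-fold and 1.96-fold higher, called at both times. On the probe set with the highest mean the 8 h difference was 0.55 (adjusted p = 0.232, and 0.00801 with the block). The 24 h call was lost without P2 untreated replicate 1 or 3 or 24 h replicate 1 or 2 (adjusted p up to 0.0824).

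CDH13 was at 9.62, 9.22 and 8.45 after 8 h and 9.14, 8.45 and 7.99 after 24 h. The groups overlapped, but within numbers 1, 2 and 3 the 24 h difference from untreated cells was -0.66, -0.93 and -0.75. It was not called without the block (-0.78, adjusted p = 0.204) and was called with it (adjusted p = 0.00159).

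CLDN11 fell at 24 h and was not called at 8 h, and the later time differed from the earlier. It was at 8.06, 8.32 and 8.98 after 8 h and 6.48, 6.42 and 7.20 after 24 h, against 8.43, 8.67 and 9.08 untreated. The 24 h arrays were more than 0.8 log2 units below every other array, and the 8 h arrays overlapped with the untreated ones. The fall at 24 h was 4.07-fold (log2 -2.03 ± 0.279, adjusted p = 0.00131), kept in all 12 fits that left out 1 array. At 8 h the difference was -0.27 (adjusted p = 0.711). The step from 8 h to 24 h was -1.75 ± 0.279 (adjusted p = 0.0326, and 0.00157 with the block). That call held in 5 of 12 fits that left out 1 array, and was lost without P0 replicate 2 or 3, any 1 of the 8 h arrays, or 24 h replicate 1 or 2 (adjusted p up to 0.141). It was also lost with P2 arrays alone (adjusted p = 0.0807) and with no filter (adjusted p = 0.05, just over the threshold). CLDN6 was at 7.48, 7.15 and 7.10 and then 7.40, 6.93 and 7.20, overlapping with untreated cells at both times. No other claudin was called with TGF-β1 in either fit.

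PPL had the largest change of any member with TGF-β1. It was at 7.84, 6.37 and 7.93 after 8 h and 5.27, 4.14 and 5.75 after 24 h, against 8.82, 7.62 and 9.31 untreated. The 24 h arrays lay below all other arrays of the study, and the 8 h arrays overlapped with the untreated ones. The fall at 24 h was 11.5-fold (log2 -3.53 ± 0.512, adjusted p = 0.00178). Within numbers 1, 2 and 3 it was -3.55, -3.48 and -3.56. The 24 h array numbered 2, at 4.14, was under the control level, so the size of the fall in that number is not measured. Numbers 1 and 3 moved alike although their starting levels differed. At 8 h the same differences were -0.98, -1.26 and -1.39 (adjusted p = 0.244, and 0.00137 with the block). Between 24 h and 8 h PPL differed by -2.32, not called without the block and called with it (adjusted p = 0.000652). The 24 h call held in all 12 fits that left out 1 array.

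The syndecans were not called in the fit without a block. SDC1 was at 8.80, 8.66 and 8.68 after 8 h and 8.63, 8.52 and 8.16 after 24 h, with the 8 h arrays above all untreated ones (difference 0.40, adjusted p = 0.15, and 0.0406 with the block). No other SDC1 probe set was called at 8 h without the block. Within numbers 1, 2 and 3 they differed by 0.18, 0.19 and 0.43, by -0.13, 0.43 and -0.10, and by 0.28, -0.14 and -0.28. SDC2 was at 13.18, 13.19 and 13.53 and then 13.24, 13.21 and 13.52. SDC4 was at 8.52, 8.23 and 8.61 and then 8.22, 7.85 and 8.49, and its 24 h difference of -0.33 was called with the block alone (adjusted p = 0.0364). All treated values of SDC2 and SDC4 were above their P0 values.

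**Figure D4:**
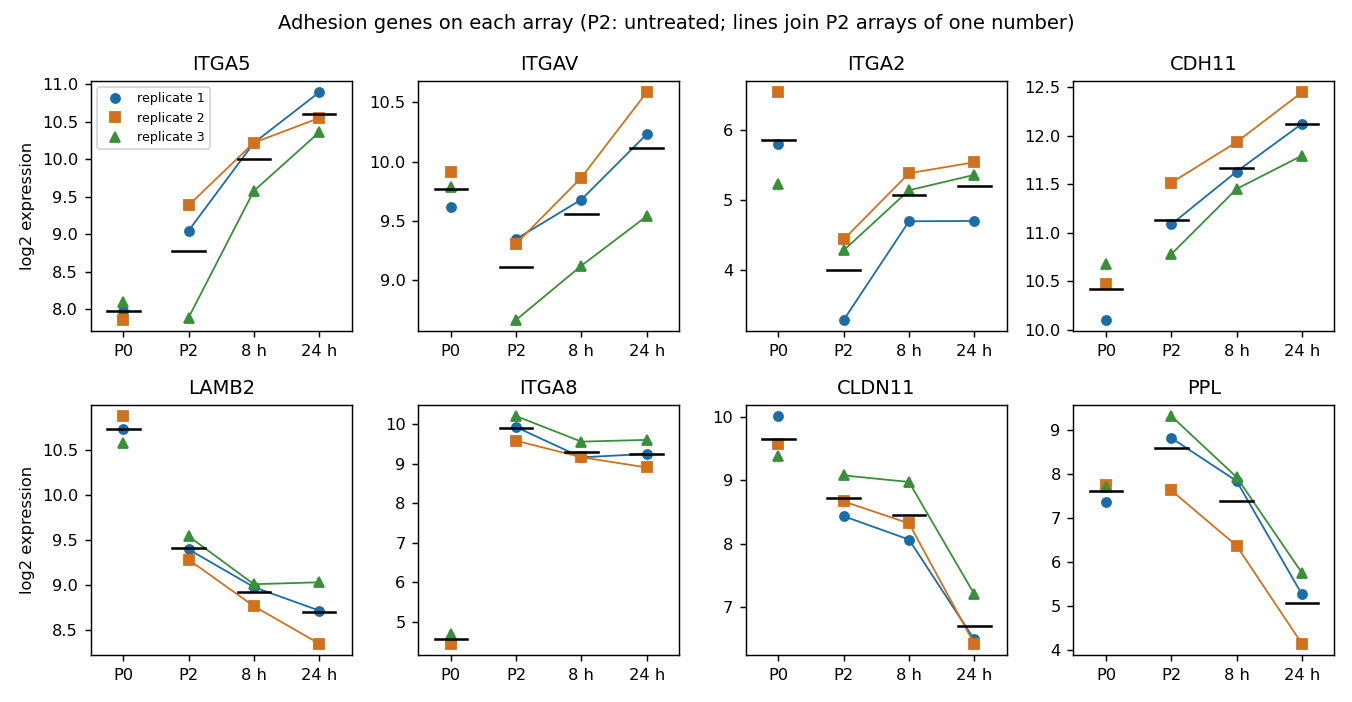
Log2 value on each array of 8 genes called with TGF-β1 at 8 h or 24 h in the fit without or with a replicate block, by group (P2: untreated), with bars at group means and lines joining P2 arrays of 1 replicate number. For PPL each line falls by between 3.48 and 3.56 from untreated to 24 h, and the 24 h value numbered 2 is under the control level.

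The counts of partner genes with TGF-β1 stand against 5.59% of all genes called at 8 h and 10.1% at 24 h. No gene of the 15 tested integrin adaptors and focal adhesion genes was called by limma at either time. Of 17 integrin ligands, 2 rose and 1 fell at 8 h, and 7 rose and 2 fell at 24 h, with a median of 0.44 at 24 h beside -0.01 for all genes. VCAM1, the ligand of α4 integrins, fell 2.87-fold at 8 h and 8.19-fold at 24 h (log2 -3.03 ± 0.223, adjusted p = 3.91e-05). TNC, tenascin C, rose by 0.95 at 8 h and by 1.77 ± 0.129 at 24 h. TGFB1, whose latent form αv integrins bind, rose 2.60-fold at 24 h (log2 1.38 ± 0.249, adjusted p = 0.00608). THBS2 rose by 0.84 at 8 h. Between 24 h and 8 h, VCAM1 fell by 1.51 (adjusted p = 0.0231) and TNC rose by 0.82 (adjusted p = 0.0316), the 2 ligands called there.

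Among the remaining partners, CGNL1 fell at both times, by 0.88 at 8 h (adjusted p = 0.0122) and 1.10 at 24 h (adjusted p = 0.00234), and was the 1 tight junction partner called of 6. PCDH7 fell by 1.24 at 24 h (adjusted p = 0.0321) and was the 1 junction partner called of 7. EXT1, which builds the heparan sulfate chain, rose 2.45-fold at 8 h (log2 1.29 ± 0.201, adjusted p = 0.0053) and 1.98-fold at 24 h. At 24 h HPSE fell by 0.83 and SULF2 rose by 0.61 (adjusted p = 0.00286 and 0.0394). Of 5 basement membrane partners, DST rose by 0.52 at 24 h (adjusted p = 0.0409) and none was called at 8 h.

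Replicate number separated the P2 arrays for several members. In a moderated F test of replicate number within the 9 P2 arrays, 11 of the 28 genes were called, against 12.7% of all genes, and 11 of the 42 probe sets, against 12.3% of all probe sets. They were PPL, CDH13, ITGAV, ITGA2, CLDN11, CDH11, ITGA8, ITGB5, SDC4, CLDN6 and ITGB2. The means of PPL over the P2 arrays numbered 1, 2 and 3 were 7.31, 6.05 and 7.66 (adjusted p = 0.000379), so number 2 was low. CDH13 means were 9.52, 9.02 and 8.39 (adjusted p = 0.00133), and ITGAV means 9.75, 9.92 and 9.10 (adjusted p = 0.00607), with number 3 lowest for both. CLDN11 means were 7.66, 7.80 and 8.42 (adjusted p = 0.00771), with number 3 highest. ITGA2 was lowest in number 1, at 4.23 against 5.12 and 4.93 (adjusted p = 0.00684). Without the arrays numbered 3, 1 of the 28 genes was called. That fit had fewer arrays, and the share of all genes called in it was not counted. The lower count therefore does not show which number set the differences.

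**Figure D5:**
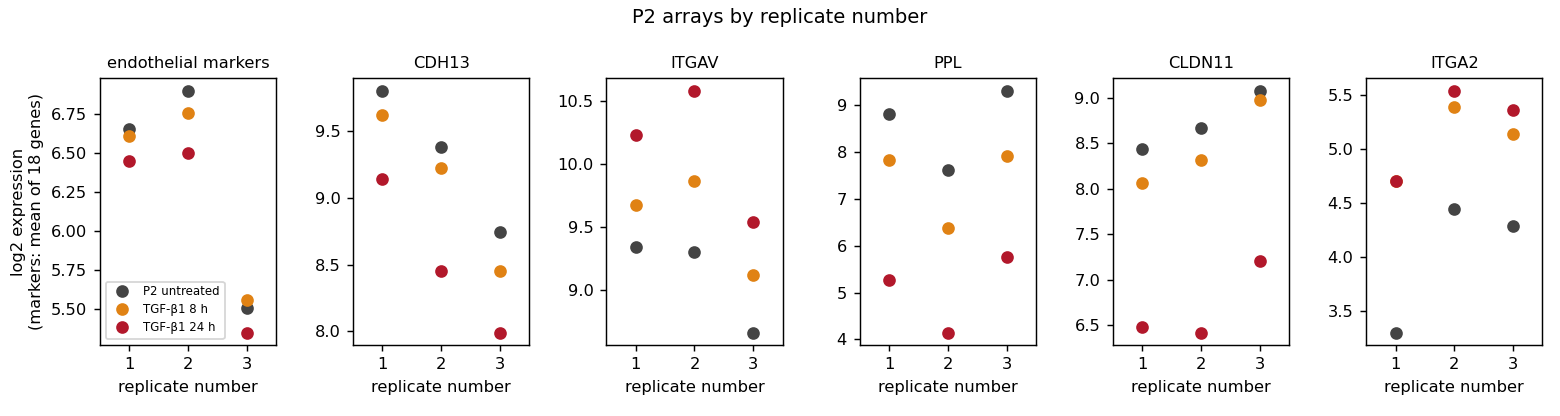
Mean log2 value of the 18 endothelial markers and log2 value of 5 members on the 9 P2 arrays, by replicate number and treatment (colours). Endothelial markers and CDH13 are lowest in number 3 in each group, CLDN11 is highest in number 3, and PPL is lowest in number 2.

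The arrays numbered 3 were also those low in endothelial markers. In all 3 P2 groups number 3 was the lowest array for 10 of 18 endothelial markers, for 7 of the 28 members (CDH11, CDH13, ITGA2B, ITGA5, ITGAV, ITGB3 and LAMB1) and for 14.5% of all genes. It was the highest for no endothelial marker, for 7 members (CLDN11, ITGA8, ITGB5, LAMB2, PPL, SDC2 and SDC4) and for 15.7% of all genes. The part of endothelial RNA in these differences was not tested. Without the arrays numbered 3, the 24 h changes of all 6 members called there held. Their log2 changes were then 1.50 for ITGA5, 1.08 for ITGAV, 0.98 for CDH11, -3.51 for PPL, -2.10 for CLDN11 and -0.80 for LAMB2, with adjusted p between 0.00146 and 0.0472.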

How the data were processed

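Expression was measured on 12 Affymetrix porcine arrays. The deposited values are log2 per probe set; per the submitters' processing notes GCRMA was used, with no version, and any further step or batch is not stated there. Array medians lay within 0.0734 of each other, and values were used as deposited. Platform symbols were given 1 per probe set for 10069 probe sets, several for 198 and none for 13732, and all 42 member symbols equalled the RefSeq symbol of their gene ID. The 64 control probe sets were left out.

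A model of the 4 groups over the 12 arrays together was fitted in limma 3.58.1 (R 4.3.3; 8 residual degrees of freedom, 3.745 from the prior), two-sided, and the number of arrays limits the precision (median SE 0.159). The code was tested on simulated data. Same-numbered P2 arrays deviated from their group means together (correlations 0.348 to 0.679 over 9 pairs). Different numbers gave -0.513 to 0.0796. Deviations within a group sum to 0, so these values are not independent of those for the same number. P0 did not follow the numbers (-0.0916 to 0.0158), and the block was applied to P2 arrays. Where the shared deviations come from is not stated in the labels.

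Members, gene lists and tests were chosen with earlier results of these data known. Values are printed for members called with TGF-β1, the 8 largest rises and 8 largest falls among genes called in culture without overlap, genes with opposite probe set calls, the 6 smallest p-values for replicate number, and a panel of 27 genes, 18 of them members. Up to 3 called genes are named per partner list and comparison. Alternatives changed the filter, block, arrays, normalisation, variance prior, probe set rule and left-out array.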

Additional observations from a re-analysis of the deposited data

Results flagged for a closer look

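CLDN11 differed between the 2 times of TGF-β1 by the test of the difference itself. Its change at 24 h minus that at 8 h was -1.75 (adjusted p = 0.0326, limma), with -1.58, -1.90 and -1.77 within replicate numbers 1, 2 and 3. The same difference was -1.74 (adjusted p = 0.045) without the P2 arrays numbered 3. The call was lost in 7 of 12 fits that left out 1 array (adjusted p up to 0.141), with P2 arrays alone (adjusted p = 0.0807) and with no filter (adjusted p = 0.05, just over the threshold). CLDN11 was not the member with the largest difference between the times. PPL differed by -2.32, not called without a block and called with the block on P2 arrays (adjusted p = 0.000652, limma).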

How the results depend on the processing

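Counts of members called in culture stayed within 1.5 times under every alternative run, 8 to 12 up and 7 to 9 down when 1 array was left out. With TGF-β1 they moved more. With a replicate block on P2 arrays, the counts up and down were 5 and 4 at 8 h, 5 and 6 at 24 h, and 2 and 3 between the times. With the replicate block over all 12 arrays, 2 rose and 2 fell at 8 h, 4 rose and 5 fell at 24 h, and 2 fell between the times. The share of all genes called with that block was not counted. That block also puts each P0 array with the P2 arrays of its number, although P0 did not follow the numbers. In culture it gave calls for ITGAV, CDH13 and PPL (adjusted p = 0.00695, 0.0133 and 0.0214, limma), which the fit without a block did not. The count up at 8 h was 0 with no filter, with P2 arrays alone or with quantile normalisation, and 2 with the mean of a gene's probe sets. The count down between the times was 0 with no filter or P2 arrays alone. Leaving out 1 array gave 0 to 1 up at 8 h, 1 to 3 up and 2 to 4 down at 24 h, 0 to 1 down between the times, and 5 to 8 for replicate number. That last count was 1 without the P2 arrays numbered 3, an alternative chosen after seeing the data. It had fewer arrays, and the share of all genes called in it was not counted. The mean of a gene's probe sets turned 3 culture changes, CDH11 to -0.066, LAMC1 to 0.63 and SDC1 to 0.039. Over single genes that were called, 465 values kept their call, 63 lost it and 3 turned. Over genes not called, 1732 stayed so, 45 gained a call and 60 changed sign without one. The causes were not tested. With 3 arrays a group, CLDN7, CDH17 and others under the control level have no measured level.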
